A study of Homo sapiens with 20 samples.

Results

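The nuclear encoded subunits of the respiratory chain were followed across 20 human biliary tract cancer cell lines, each profiled as 1 library by RNA-seq. Members were chosen by symbol alone: NDUFA, NDUFB, NDUFC, NDUFS and NDUFV genes for complex I, SDHA to SDHD for complex II, UQCR genes for complex III, COX4 to COX8 genes for complex IV, and ATP5 genes for complex V. Of 24222 entries in the count table, 92 matched these patterns. A pseudogene (UQCRBP1), 3 antisense or divergent RNAs and 2 readthrough transcripts were set apart, which left 86 genes. NDUFA4 and NDUFA4L2, which match by their older symbols, were added and counted with complex IV, where their current names place them. The 88 members comprised 36 genes of complex I, 4 of complex II, 9 of complex III, 19 of complex IV and 20 of complex V.

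The lines fell into 4 labelled sites and 1 mixed label. The 4 intrahepatic lines were HuCCT1, HuH28, SNU-1079 and TKKK. The 3 ampullary lines were SNU-478, SNU-869 and TGBC18TKB. The 5 extrahepatic lines were EGI-1, Sk-ChA-1, SNU-1196, SNU-245 and TFK-1. The 7 gallbladder lines were G415, Mz-ChA-2, NOZ, OCUG-1, TGBC14TKB, TGBC2TKB and SNU-308. OZ carried both bile duct labels, so it entered no comparison between sites. The labels gave a metastatic origin for 7 lines (G415, HuCCT1, Mz-ChA-2, NOZ, OCUG-1, OZ and Sk-ChA-1) and a primary origin for the other 13. All were grown untreated in the same serum-containing medium. The lines came from the repositories KCLB, RIKEN, HSRRB, DSMZ and Zurich University. The KCLB and DSMZ lines were all primary and the Zurich lines all metastatic, so origin was partly tied to the repository. A cell line is the culture of 1 tumour without stroma, so lines were the replicates, and nothing here measured how 1 line varies between cultures.

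The respiratory chain sits in the inner mitochondrial membrane. Complexes I and II pass electrons from NADH and succinate to ubiquinone, complex III passes them to cytochrome c, and complex IV passes them to oxygen. Complexes I, III and IV pump protons, and complex V, the ATP synthase, uses the resulting gradient to make ATP. Most subunits are encoded in the nucleus, and a small set, not analysed here, is encoded in mitochondrial DNA. Some nuclear subunits have a common form and a form restricted to muscle, lung, testis or hypoxic cells. NRF1, ETS family factors such as GABPA, YY1 and the oestrogen related receptors are known regulators of many of these genes.

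Short motifs of these 4 kinds of factor were searched in the promoter window that RefSeq gives on GRCh38.p14, 250 bases before to 50 bases after a gene's start. The deposited counts came from reads aligned to hg19, and the windows were used for their letters only. Windows were found for 71 of the 88 members, of which 66 had a median level of at least 5 CPM (read counts scaled to a common library size). Searched on both strands, GCGCATGC (NRF1) was in 13 of the 66 windows, or 19.7%, against 5.92% of the 9344 windows of all genes at that level and 3.27% of all 27305 windows. CCGGAAG (ETS) was in 20 member windows, 30.3%, against 20.9% and 10.7%. AAGATGGC (YY1) was in 11, 16.7%, against 5.85% and 3.03%. TCAAGGTCA (the oestrogen related receptors) was in 1, that of SDHD, 1.52%, against 0.118% and 0.359%. Of the 66 windows, 34 held at least 1 of the 4 motifs and 8 held more than 1 kind. The motifs were chosen as known ones and a match is a description of letters.

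Promoter windows are printed for ATP5PF, whose level followed the other members most closely, for COX5B and COX6A1, the members with the smallest p along the epithelial minus mesenchymal score, and for the pair COX6B1 and COX6B2, a common and a restricted form. Capitals mark any of the 4 motifs. The ATP5PF window, chr21:25735005-25735304 on the minus strand, holds the NRF1, YY1 and ETS letters in that order. The COX5B window, chr2:97645812-97646111 on the plus strand, holds 1 NRF1 motif and 2 ETS motifs. The COX6A1 window, chr12:120437863-120438162 on the plus strand, holds 2 NRF1 motifs and 1 ETS motif. The COX6B1 window, chr19:35648073-35648372 on the plus strand, holds 1 ETS motif, and the COX6B2 window, chr19:55354670-55354969 on the minus strand, holds none of the 4.
ATP5PF: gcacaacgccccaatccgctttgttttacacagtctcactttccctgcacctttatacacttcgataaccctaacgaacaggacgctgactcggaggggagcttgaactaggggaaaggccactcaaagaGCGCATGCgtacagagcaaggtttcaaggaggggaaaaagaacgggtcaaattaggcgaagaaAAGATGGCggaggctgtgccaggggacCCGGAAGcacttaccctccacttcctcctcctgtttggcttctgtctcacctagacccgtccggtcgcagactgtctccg
COX5B: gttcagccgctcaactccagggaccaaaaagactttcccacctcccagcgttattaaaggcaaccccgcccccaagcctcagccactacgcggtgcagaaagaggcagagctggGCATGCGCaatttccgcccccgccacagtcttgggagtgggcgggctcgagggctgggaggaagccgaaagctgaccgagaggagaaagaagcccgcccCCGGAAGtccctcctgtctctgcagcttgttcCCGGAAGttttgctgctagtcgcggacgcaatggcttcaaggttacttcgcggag
COX6A1: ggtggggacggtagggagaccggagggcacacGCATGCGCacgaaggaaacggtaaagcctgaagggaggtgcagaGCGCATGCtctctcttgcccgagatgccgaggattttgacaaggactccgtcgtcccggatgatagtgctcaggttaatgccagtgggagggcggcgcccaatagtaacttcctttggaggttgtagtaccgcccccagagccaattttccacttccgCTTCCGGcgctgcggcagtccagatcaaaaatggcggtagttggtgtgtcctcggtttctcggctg
COX6B1: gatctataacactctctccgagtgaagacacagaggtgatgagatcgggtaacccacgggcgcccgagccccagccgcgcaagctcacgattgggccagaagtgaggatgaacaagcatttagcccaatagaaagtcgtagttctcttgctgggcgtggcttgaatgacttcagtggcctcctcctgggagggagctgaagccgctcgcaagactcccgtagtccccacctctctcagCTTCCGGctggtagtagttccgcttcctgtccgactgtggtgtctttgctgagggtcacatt
COX6B2: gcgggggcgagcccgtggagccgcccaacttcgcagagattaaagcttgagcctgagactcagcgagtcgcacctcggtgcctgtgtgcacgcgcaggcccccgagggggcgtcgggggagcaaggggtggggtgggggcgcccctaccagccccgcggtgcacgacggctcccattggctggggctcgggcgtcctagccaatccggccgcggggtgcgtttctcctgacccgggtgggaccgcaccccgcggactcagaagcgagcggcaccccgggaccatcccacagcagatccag

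Library totals ran from 10.47 M to 15.41 M counts, with a median of 12.49 M. The epithelial markers KRT8, KRT18 and SOX9 were at or above 5 CPM in all 20 lines, KRT19 in 19, and KRT7 and EPCAM in 18. The leukocyte genes PTPRC and CD3E did not pass 1.32 CPM in any line, whereas CD68, on the same leukocyte list, was at or above 5 CPM in all 20, LYZ in 8 and CD14 in 6. Levels are CPM after TMM scaling, and log2 values add a prior count of 2. Of the 88 members, 80 had a median of at least 5 CPM over the lines. The 8 below were COX4I2, COX6A2, COX6B2, COX7A1, COX7B2, COX8C, NDUFA4L2 and ATP5MGL. UQCRHL is a copy of UQCRH, and its counts were 0.863 to 1.18 times those of UQCRH in every line, so the reads of these genes cannot be told apart. The readthrough transcripts NDUFC2-KCTD14 and ATP5MF-PTCD1 were counted at 0.691 to 1.17 and 0.992 to 1.75 times NDUFC2 and ATP5MF. A further limit is that 27 members overlap another counted gene, and the strand setting of the counting is not given in the sources used here.

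Levels of the subunits moved together from line to line. The mean of the 80 members' centred log2 CPM, called the member score, was highest in NOZ (0.65), SNU-478 (0.44) and OCUG-1 (0.36). It was lowest in EGI-1 (−0.57), HuH28 (−0.50) and TGBC18TKB (−0.40). The span of 1.22 log2 units is a 2.34-fold difference between NOZ and EGI-1. NOZ held the highest level of 20 of the 80 members and was above a member's median for 75 of them. HuH28 held the lowest level of 13 members, and EGI-1, TGBC18TKB and TKKK of 10 each. Over all members but UQCRHL, summed CPM was 12452 in NOZ and 5067 in EGI-1, with a median of 7648 over the lines. As a share of counts, the members took 1.16% in NOZ (95% Wilson interval 1.15 to 1.16) and 0.447% in HuH28 (0.444 to 0.451), intervals that cover counting error only. These shares are not TMM scaled. HuH28, with a TMM factor of 0.82, was lowest by share, and EGI-1 had 0.509%. In bulk libraries, fewer expressing cells and less RNA per cell cannot be told apart.

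**Figure D1:**
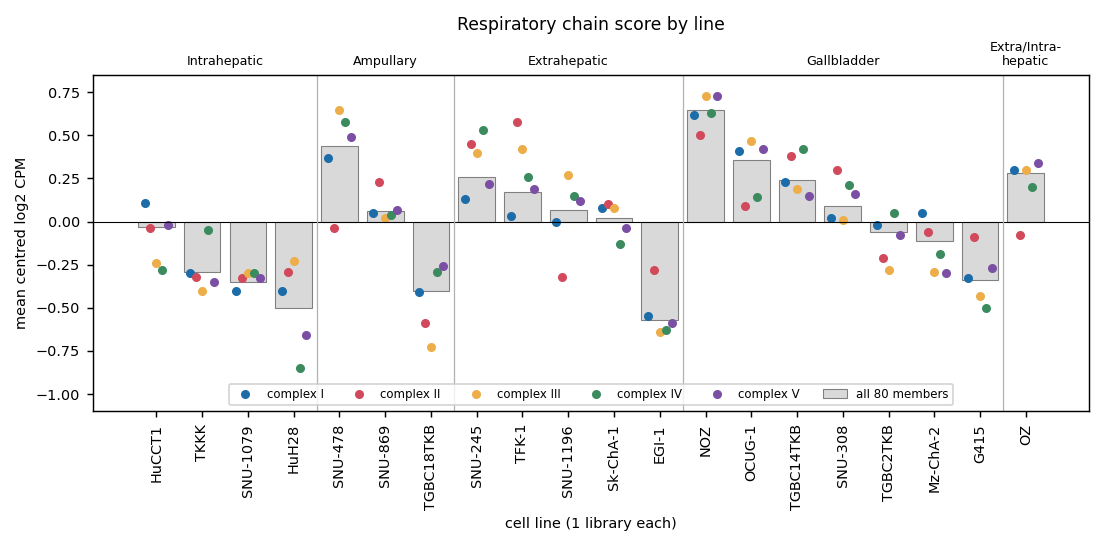
Member score by line. Bars give the mean centred log2 CPM of the 80 members with a median of at least 5 CPM, points the same for each complex, and lines are grouped by site. NOZ is highest at 0.65 and EGI-1 lowest at −0.57, and in most lines the 5 complexes lie on the same side of 0.

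The complexes moved in step, with complex II the least tied to the rest. Across the 20 lines the score of complex I followed that of complex V with Pearson's r = 0.93, that of complex III with 0.87 and that of complex IV with 0.82. Complex II followed complexes I, III, IV and V with r of 0.66, 0.70, 0.66 and 0.65. Its score is a mean of 4 genes, against 36, 9, 12 and 19 for complexes I, III, IV and V. A mean of few genes is noisier, which lowers such r by itself. Between single members of different complexes, the median r was 0.21 to 0.26 for pairs with complex II. It was 0.31 to 0.41 between the other complexes. These are descriptions over 20 lines, and the scores share library and depth. TFK-1 had a complex II score of 0.58 and a complex I score of 0.03. SNU-1196 had a complex II score of −0.32 and a complex III score of 0.27, so complex II departed from the others in both directions. Summed CPM of complex II ran from 268 in TGBC18TKB to 690 in TFK-1, and that of complex V from 1643 in EGI-1 to 4830 in NOZ.

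Among pairs of single members, the median r over the 20 lines was 0.33, and 89.5% of the 3160 pairs were positive. Over all 11548 genes with a median of at least 5 CPM the median was 0.0 and 50.2% of pairs were positive. ATP5PF, the coupling factor F6 of the ATP synthase stalk, had the highest r with the mean of the other members (0.88). ATP5MK, a small ATP synthase subunit of the membrane part, had 0.86, and NDUFB8, an accessory subunit of the complex I membrane arm, had 0.85. At the other end, NDUFC2, another membrane arm subunit, had −0.18. NDUFV1, the core subunit that binds NADH, had 0.17. The 7 nuclear encoded core subunits of complex I had a median r of 0.49, with NDUFS3 highest at 0.71, and the other 29 subunits 0.54. The 34 members with a promoter motif had a median r of 0.58 with the other members and the 32 without one 0.54.

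**Figure D2:**
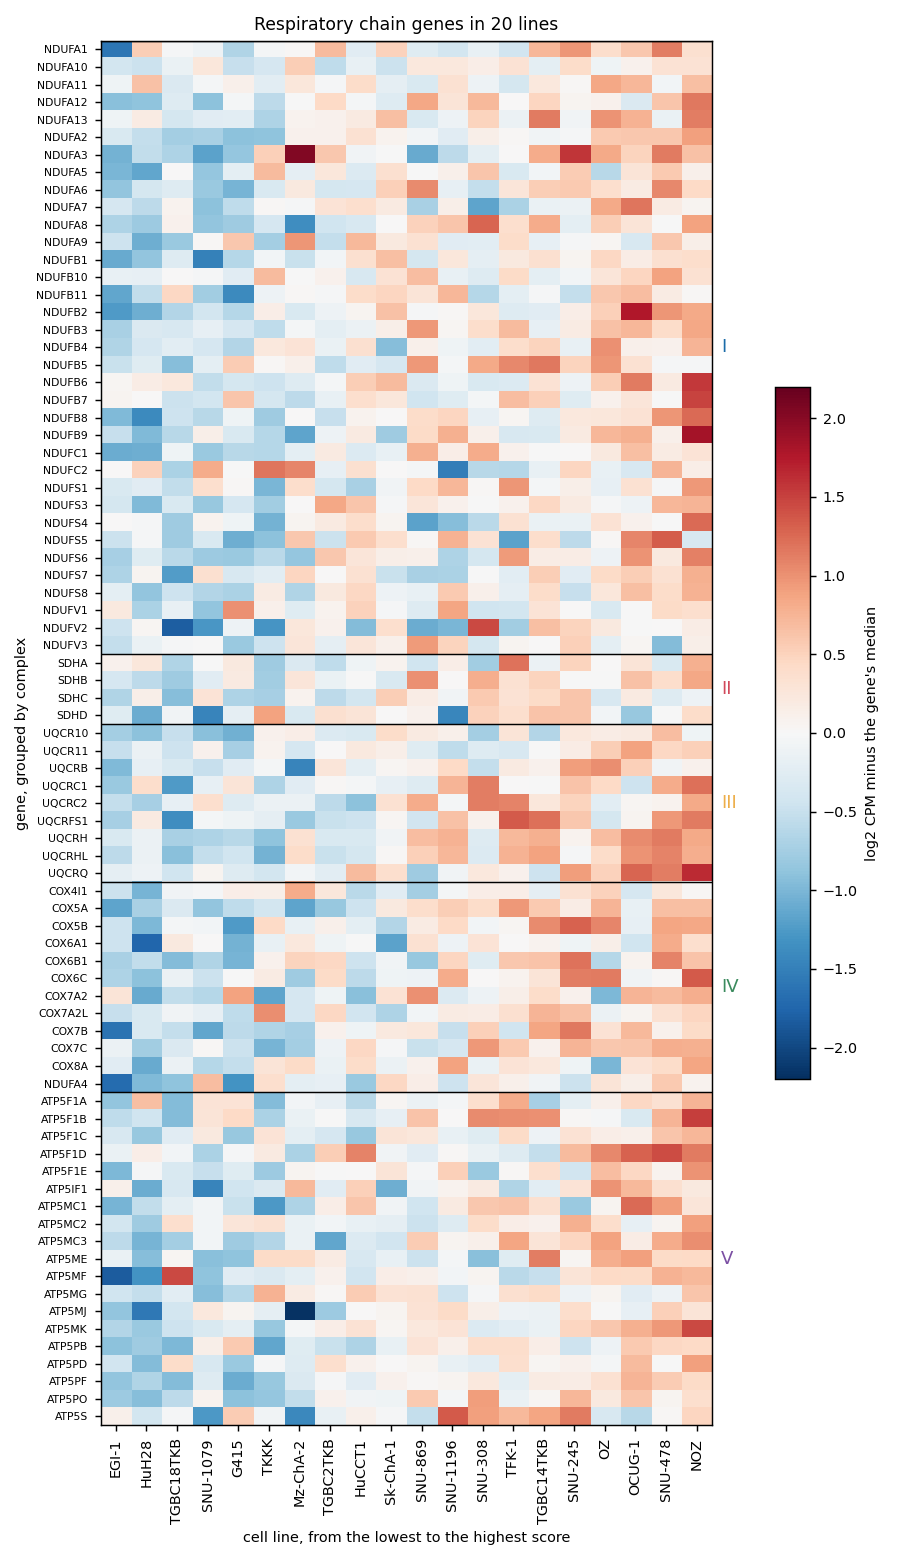
Log2 CPM of the members with a median of at least 5 CPM (1 of them not shown) minus each gene's median over the 20 lines, by complex (rows) and line (columns, ordered by member score). Blue cells on the left and red on the right show most members low in EGI-1 and high in NOZ, while NDUFC2, with r of −0.18 to the other members, does not follow that order.

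Member levels varied less between lines than those of most genes. The SD of log2 CPM over the lines had a median of 0.58 over the 80 members. It was 0.71 over all genes with a median of at least 5 CPM, and 74 members were below that value. The genes were not matched to the members for level beyond this minimum. NDUFA3 varied most (SD 0.91), followed by NDUFV2 (0.80), ATP5MF (0.74), UQCRFS1 (0.73) and ATP5S (0.72). NDUFA3 is a small accessory subunit of complex I, NDUFV2 an iron-sulphur subunit of its NADH-oxidising module, ATP5MF a membrane subunit of the ATP synthase, and UQCRFS1 the Rieske iron-sulphur protein of complex III. NDUFA3 had 91.7 CPM in Mz-ChA-2, 9.78 in SNU-1079 and a median of 22.3. NDUFV2 had 118 CPM in SNU-308, 12.3 in TGBC18TKB and a median of 43.2. NDUFA10 (SD 0.35), NDUFB10 (0.36), NDUFA11 (0.38) and ATP5MC2 (0.41) were among those that varied least. NDUFA10 lay between 68.2 and 145 CPM in all 20 lines.

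Within complex I, the subunits that take up electrons from NADH are NDUFV1, NDUFV2, NDUFV3 and NDUFS1. NDUFV1 ran from 78.6 CPM in SNU-1079 through a median of 143 to 288 in G415, a line with a member score of −0.34. NDUFS1 ran from 44.8 in TKKK through 89.6 to 175 in TFK-1, and NDUFV3 from 13.3 in SNU-478 through 25.8 to 49.0 in SNU-869. SNU-478 had the second highest member score, so NDUFV1 and NDUFV3 both had an extreme level opposite to the score of its line. The subunits that lead electrons on to ubiquinone include NDUFS3, NDUFS7 and NDUFS8. NDUFS8 ran from 38.4 in HuH28 through 70.3 to 119 in NOZ, and NDUFS7 from 13.1 in TGBC18TKB through 30.7 to 52.7 in NOZ.

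Among accessory subunits of the complex I membrane arm, NOZ held the highest level of NDUFB6, NDUFB7, NDUFB8 and NDUFB9, and OCUG-1 that of NDUFB2. NDUFB8 ran from 27.7 CPM in HuH28 through 72.9 to 172 in NOZ. NDUFB2 ran from 20.2 in EGI-1 through 48.0 to 162 in OCUG-1, and NDUFB1 from 11.7 in SNU-1079 through 32.9 to 52.0 in Sk-ChA-1. NDUFA1, an X-linked subunit of the same arm, ran from 24.1 in EGI-1 through 72.6 to 159 in SNU-478. NDUFC2 ran from 29.4 in SNU-1196 through 84.8 to 193 in TKKK, and NDUFC1, its neighbour in the complex, from 14.3 in EGI-1 through 30.6 to 53.8 in SNU-308. The r with the other members was 0.74 for NDUFC1 and −0.18 for NDUFC2.

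Complex II, which is also the succinate dehydrogenase of the tricarboxylic acid cycle, differed between its own subunits. SDHA, the flavoprotein, ran from 105 CPM in TKKK through a median of 182 to its highest level in TFK-1, 3.93 times that in TKKK. SDHB, the iron-sulphur subunit, ran from 37.4 in TGBC18TKB through 64.2 to 129 in SNU-869. SDHC, a membrane anchor, ran from 35.9 in TGBC18TKB through 69.2 to 105 in SNU-245. SDHD, the other anchor, ran from 30.5 in SNU-1079 through 83.5 to 155 in TKKK. TKKK thus held the lowest SDHA and the highest SDHD level of the 20 lines. The 6 pairs among the SDH genes had a median r of 0.19 over the lines, with a range of −0.16 to 0.46.

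In complex III, UQCRC1 and UQCRC2 form the core of the matrix side. UQCRC1 ran from 66.0 CPM in TGBC18TKB through 157 to 364 in NOZ, and UQCRC2 from 80.5 in HuCCT1 through 150 to 327 in SNU-308. UQCRFS1 ran from 25.3 in TGBC18TKB through 65.0 to 165 in TFK-1. The small subunits UQCR10 and UQCR11 were both lowest in G415, with UQCR10 highest in SNU-478 and UQCR11 in OCUG-1. UQCRQ, which overlaps GDF9, ran from 38.5 in SNU-869 through 65.9 to 205 in NOZ. All 9 complex III members had r of 0.50 or more with the other members.

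In complex IV, HuH28 held the lowest level of COX4I1, COX6A1, COX6C and COX8A and had a complex IV score of −0.85, against −0.40 for complex I. COX4I1, a subunit where ATP regulates the enzyme, ran from 117 CPM in HuH28 through a median of 236 and had the lowest r with the other members within complex IV (0.28). COX5A ran from 50.7 in EGI-1 through 114 to 221 in TFK-1 and had the highest (0.76). COX7B ran from 34.9 in EGI-1 through 108 to 240 in SNU-245, and COX7C from 68.8 in TKKK through 139 to 270 in SNU-308. NDUFA4 ran from 24.1 in EGI-1 through 78.5 to 126 in SNU-1079.

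In complex V, the catalytic head holds ATP5F1A and ATP5F1B, and the central stalk ATP5F1C, ATP5F1D and ATP5F1E. ATP5F1B ran from 272 CPM in TGBC18TKB through 529 to 1518 in NOZ, and ATP5F1A from 146 in TGBC18TKB through 283 to 495 in TFK-1. ATP5F1C ran from 112 in HuCCT1 through 201 to 333 in NOZ. The peripheral stalk subunits ATP5PB, ATP5PD, ATP5PF and ATP5PO had r of 0.61, 0.66, 0.88 and 0.72 with the other members. ATP5PF ran from 35.3 in G415 through 75.1 to 126 in OCUG-1. ATP5MK ran from 25.9 in TKKK through 45.9 to 125 in NOZ. ATP5S, coupling factor B, had a low level throughout, from 2.96 in Mz-ChA-2 through 7.94 to 20.2 in SNU-1196. Its symbol came from GENCODE metadata and not from the RefSeq gene table, and its place in complex V rests on that symbol alone.

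Other measures were set beside the member score over the 20 lines, as a description. The mean of 77 mitochondrial ribosomal protein genes followed it with r = 0.88, and with 0.82 without NOZ and HuH28, the lines farthest from that measure's median. The tricarboxylic acid cycle genes gave 0.76 (0.73 without the 2 lines farthest from the measure's median), cytosolic ribosomal protein genes 0.54 (0.44), glycolysis genes 0.38 (0.35), hypoxia targets 0.29 (0.14) and proliferation genes 0.22 (0.12). Library total gave 0.06 (0.09). The TMM factor gave 0.08, and −0.25 without HuH28 and TFK-1. Among regulators, GABPB1 had r = 0.51, TFAM 0.50, TFB2M 0.50, PPARGC1B 0.47, ESRRA 0.44 and NRF1 0.38, while GABPA had −0.01 and POLRMT 0.0. The 5 genes outside the list with the highest r were FAM162A (0.83), SNRPF (0.82), PHF5A (0.81), UCHL3 (0.81) and KGD4 (0.81), of 11466 genes ranked. KGD4 is a subunit of the oxoglutarate dehydrogenase complex, and SNRPF and PHF5A are spliceosome subunits.

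Of the restricted forms of complex IV subunits, COX4I2, COX6A2, COX7A1 and COX8C were at or near 0 in the 20 lines, COX7B2 was seen in a few lines, and COX6B2 was at or above 5 CPM in 10. COX4I2, the lung form that replaces COX4I1, had 1 count over all libraries. COX7A1 and COX6A2, the heart and muscle forms of COX7A2 and COX6A1, had 9 and 16 counts, and COX8C, the testis form of COX8A, had 7. A count of 3 in a library corresponds to 0.195 to 0.287 CPM here, and COX4I2, COX7A1 and COX8C stayed at or under that level in all 20 lines. Of the 16 COX6A2 counts most fell in TGBC14TKB, where it reached 0.77 CPM. Of 6 muscle markers, DES, MYH7, ACTA1, MYL2 and CKM stayed under 5 CPM in all 20 lines, TNNT2 passed it in 4, and their sum ran from 0.544 to 19.7 CPM.

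COX6B2, the testis form of COX6B1, was detected in 19 of 20 lines and varied widely. Mz-ChA-2 had 94.4 CPM, TFK-1 51.0, EGI-1 45.6 and Sk-ChA-1 23.2, while OCUG-1 had 0 counts and the median was 4.58. In Mz-ChA-2 it held 36.2% of the counts of the pair COX6B1 and COX6B2, a share not corrected for transcript length. Over the 20 lines its level and that of COX6B1 had r = 0.02. Its spread between lines of 2.36 log2 units (SD) was the largest of the members.

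COX7B2, the restricted form of COX7B, was found in TGBC2TKB (14.5 CPM) and HuH28 (13.4 CPM). It had 1 count or none in the other 18 lines, with 0 in 16. In TGBC2TKB it held 13.6% of the counts of COX7B and COX7B2. NDUFA4L2, a hypoxia-induced relative of NDUFA4, stayed at or under 3.95 CPM. Its 4 highest levels were all in gallbladder lines, TGBC2TKB (3.95), SNU-308 (2.95), OCUG-1 (2.80) and TGBC14TKB (2.38), while the 3 other gallbladder lines had 0.942, 0.622 and 0.314. NDUFA4L2 overlaps SHMT2 in the genome, and whether reads of SHMT2 entered its counts was not tested.

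**Figure D3:**
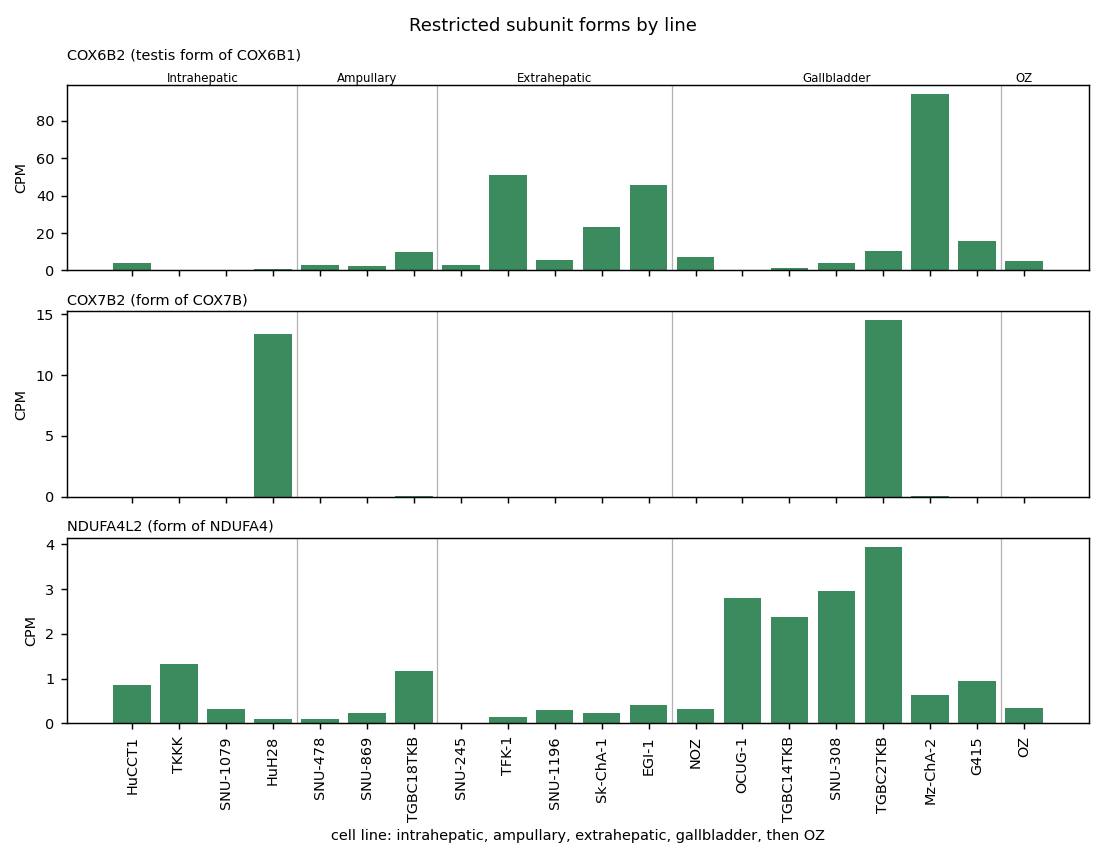
Levels of the restricted forms COX6B2, COX7B2 and NDUFA4L2 in CPM (bars, 1 library per line, linear axes that differ between panels), with lines grouped by site. COX6B2 is highest in Mz-ChA-2 at 94.4, COX7B2 is seen in HuH28 and TGBC2TKB at 13.4 and 14.5, and NDUFA4L2 stays at or under 3.95.

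Subunit c, which forms the rotor ring of the ATP synthase, is made from 3 genes, ATP5MC1, ATP5MC2 and ATP5MC3, that give the same mature protein. Their shares of the summed counts, not corrected for length, differed between lines. ATP5MC1 took 36.8% in OCUG-1 and 8.35% in SNU-245, with a median of 20.2%. ATP5MC2 took 57.5% in TKKK and 26.0% in SNU-478, with a median of 39.1%. ATP5MC3 took 59.8% in SNU-869 and 24.7% in TGBC2TKB, with a median of 42.5%. ATP5IF1, the inhibitor that blocks ATP hydrolysis by complex V, ran from 27.7 CPM in SNU-1079 through a median of 76.3 to 151 in OZ. COX7A2L, which helps join complexes III and IV, ran from 44.0 CPM in Sk-ChA-1 through 70.2 to 143 in TKKK.

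Sites were compared in 1 edgeR quasi-likelihood fit over the 19 lines with a single site, with Benjamini-Hochberg adjustment over 16615 genes. A site was set against the unweighted mean of the other sites, so sites with few and many lines weighed the same. The means, ranges and medians of other lines printed beside the log2 differences pool those lines. In this fit 83 members were tested. COX4I2, COX6A2, COX7A1, COX7B2 and COX8C were too low to enter. With an adjusted p under 0.05, 0 members passed in any of the 6 site comparisons. Among all genes 0.00602% passed for ampullary lines and in the joint test of the 4 sites, and 0.0% in each of the other 4 comparisons. DESeq2 called 1 member, COX7A2, in intrahepatic lines against the other sites and in the joint test, where its counts over all genes were 267 and 312, and limma-voom called 0 members.

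Most members had lower levels in intrahepatic lines than in the other sites, without 1 passing the test in edgeR. The member score averaged −0.29 ± 0.20 in intrahepatic lines and 0.06 ± 0.33 in the lines of the other sites (SD, n = 4 and 15), and the groups overlapped. Of 83 members, 71 were lower and 12 higher in intrahepatic lines, with a median log2 difference of −0.33, against 0.04 over all genes. The share higher was 14.5%, against 52.9% of all genes. Member levels moved together from line to line, so counts of members here and below are not counts of independent genes. By complex the medians were −0.25 for complex I, −0.07 for II, −0.37 for III, −0.39 for IV and −0.36 for V. An unadjusted p under 0.05 was reached by 12 members (11 lower, 1 higher), 14.5% of those tested, against 9.47% of all genes. UQCRH and its copy UQCRHL were both among the 11. Without HuH28 or without SNU-1079, 5 members reached it, with medians of −0.26 and −0.30. Without SNU-869 6 did, and 4 did with OZ taken as intrahepatic, where the median was −0.16. Members of cytosolic and mitochondrial ribosomes had medians of −0.28 and −0.33 in the same comparison. Glycolysis genes had −0.41, proliferation genes −0.29, tricarboxylic acid cycle genes −0.14 and complex I assembly factors −0.02.

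COX7A2, the common form of a small complex IV subunit, had the smallest p. It had 47.9 CPM in HuCCT1, 42.0 in HuH28, 59.0 in SNU-1079 and 40.6 in TKKK, against 62.3 to 182 with a median of 111 in the 15 lines of the other sites. All 4 intrahepatic lines were thus below all 15 others, which held for 0.012% of all genes, and the opposite order for 0.0181%. The log2 difference was −1.25 with a standard error of 0.29, and the adjusted p was 0.148 in edgeR, 0.00156 in DESeq2 and 0.445 in limma-voom. Over all alternatives the adjusted p ran from 0.00156 to 0.491 and the difference from −1.38 to −1.17. OZ, with its mixed label, had 46.0 CPM. The 10 genes nearest to COX7A2 in gene order had a median difference of −0.32, with 8 of 10 lower. Among them MTO1 had −0.97 and COL12A1 4.30.

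NDUFC2 was the 1 member with a higher level in intrahepatic lines at an unadjusted p under 0.05. It had 108, 120, 149 and 193 CPM there, against 29.4 to 179 with a median of 81.9 elsewhere. The log2 difference was 0.77 with a standard error of 0.33 and an adjusted p of 0.466. NDUFA12, an accessory subunit of complex I, had 23.3, 23.4, 29.1 and 41.8 CPM in intrahepatic lines, against 23.0 to 96.9 with a median of 45.4 elsewhere (−0.79, standard error 0.30, adjusted p = 0.362). NDUFC1 (−0.79), ATP5MF (−0.90), UQCRH (−0.85), NDUFA6 (−0.73), SDHB (−0.60) and COX5A (−0.76) had adjusted p values of 0.353 to 0.527. The ranges of the intrahepatic and other lines overlapped for each of these. COX6B2 had 4.10, 0.856, 0.329 and 0.497 CPM in HuCCT1, HuH28, SNU-1079 and TKKK, against 0 to 94.4 with a median of 7.46 elsewhere (−3.21, standard error 1.43, adjusted p = 0.485).

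**Figure D4:**
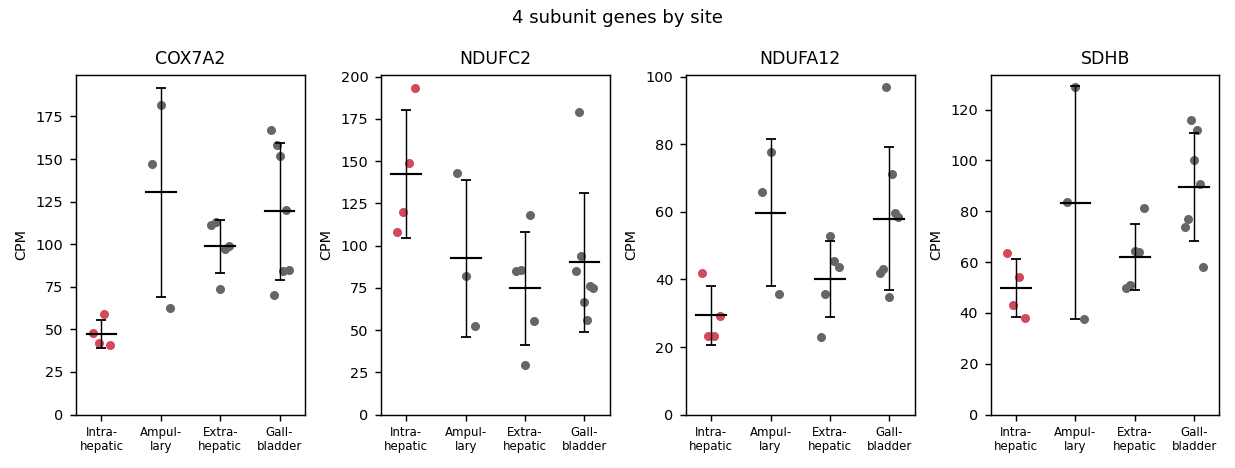
COX7A2, NDUFC2, NDUFA12 and SDHB levels in CPM by site, with 1 point per line, the mean as a line and the SD as an error bar (n = 4, 3, 5 and 7). For COX7A2 the intrahepatic lines, at 40.6 to 59.0, lie below all others, and for the other 3 genes the groups overlap.

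Set directly against the extrahepatic lines, intrahepatic lines had 67 of 83 members lower, with a median of −0.25 (all genes 0.03). The share higher was 19.3%, against 52.1% of all genes. The median was −0.41 without EGI-1, where 72 were lower, and −0.42 with the repository as a covariate, and −0.15 with OZ taken as intrahepatic. An unadjusted p under 0.05 was reached by 4 members, 4.82%, against 9.4% of all genes, and by 9 without EGI-1 and 2 without SNU-1196 or TFK-1. COX7A2 was at 40.6 to 59.0 CPM in intrahepatic lines and at 74.0 to 113 in extrahepatic lines (−1.04, standard error 0.32, adjusted p = 0.411). These groups did not overlap, which held in this direction for 0.981% of all genes and in the other for 0.945%. COX6B2 (−4.13, adjusted p = 0.441) and NDUFC2 (0.95, adjusted p = 0.475) came next.

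In ampullary lines 43 members were higher and 40 lower than in the other sites, with a median of 0.02, which became −0.13 without SNU-478 and 0.19 without TGBC18TKB. The share higher was 51.8%, against 42.3% of all genes. Of the members 3, or 3.61%, had an unadjusted p under 0.05, against 5.25% of all genes. This count was 5 without SNU-478 or TKKK, 1 without SNU-869 and 6 without TGBC18TKB. ATP5MF had 184, 117 and 296 CPM in SNU-478, SNU-869 and TGBC18TKB, against 30.5 to 177 elsewhere (1.14, standard error 0.34, adjusted p = 0.648). NDUFA6 (0.79) and COX7A2 (0.62) each had an adjusted p of 0.923. In extrahepatic lines the median was also 0.02, and it was −0.05 without SNU-245 and 0.13 without EGI-1. Of the members 4, or 4.82%, passed the unadjusted threshold, against 7.01% of all genes, with 0 without TFK-1 and 2 without SNU-1196, SNU-245, SNU-1079, SNU-869 or TKKK. SDHA had 194, 191, 200 and 256 CPM in EGI-1, Sk-ChA-1, SNU-1196 and SNU-245 and more in TFK-1, against 105 to 311 with a median of 155 elsewhere (0.66, standard error 0.25, adjusted p = 0.592). The groups overlapped.

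Gallbladder lines had 71 of 83 members higher than the other sites, with a median of 0.23, against 0.11 over all genes. The share higher was 85.5%, against 58.7% of all genes. Without NOZ 61 were higher and 22 lower, with a median of 0.13. An unadjusted p under 0.05 was reached by 6 members, all higher, 7.23% against 12.3% of all genes, with 3 without NOZ and 10 without HuCCT1. NDUFA4L2 (2.25, standard error 0.69, adjusted p = 0.242), NDUFV2 (1.01, 0.31, 0.244) and NDUFA13 (0.67, 0.21, 0.248) had the smallest p. NDUFV2 ran from 40.0 through 48.1 to 118 CPM in gallbladder lines and from 12.3 through a median of 23.9 to 61.0 elsewhere. NDUFA13, an accessory subunit of complex I that is also known as GRIM-19, ran from 62.4 through 102 to 161 CPM, against 45.5 through 67.1 to 116. In the joint test of the 4 sites 9 members, 10.8%, had an unadjusted p under 0.05, against 10.7% of all genes, with 4 or 5 without HuH28, SNU-1079, SNU-308, SNU-869, TGBC14TKB or TKKK. COX7A2 (adjusted p = 0.288), ATP5MF (0.357) and NDUFA4L2 (0.383) led it.

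Lines of metastatic origin were compared with lines from primary tumours in a second edgeR fit of all 20 lines and 14843 genes, of which 83 were members. With an adjusted p under 0.05, 0 members and 0.0% of all genes passed. DESeq2 and limma-voom also called 0 members, with 181 and 0 genes called in all. Of the members 59 were higher and 24 lower in metastatic lines, with a median of 0.15, against −0.02 over all genes. The share higher was 71.1%, against 47.6% of all genes. The median was 0.26 for complex I, where 28 of 36 members were higher, and 0.03 for complex IV, where 7 of 14 were. An unadjusted p under 0.05 was reached by 13 members (12 higher), 15.7%, against 7.73% of all genes. With the repository or with the site as a covariate 3 members reached it, and without NOZ 4 did, with a median of 0.07. Without OCUG-1 or OZ 6 did, and without TKKK 8.

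NDUFB6, a membrane arm subunit of complex I, had the smallest p. It ran from 24.0 through a median of 46.0 to 92.9 CPM in the 7 metastatic lines and from 21.7 through 29.6 to 39.2 in the 13 primary lines. The log2 difference was 0.74 with a standard error of 0.22 and an adjusted p of 0.453, and it was 0.40 with the repository as a covariate. NDUFS4, an accessory subunit whose loss causes Leigh syndrome, ran from 36.9 through 42.0 to 93.6 CPM, against 17.5 through 35.7 to 49.8 (0.60, 0.24, 0.552). NDUFA7 (0.62, adjusted p = 0.554) was next. COX7A2L was the 1 member lower at the unadjusted threshold, at 44.0 through 54.4 to 96.9 CPM in metastatic lines and 49.5 through 79.4 to 143 in primary lines (−0.48, 0.22, 0.618). All of these ranges overlapped, and 0.0% of all genes had groups that did not overlap in either direction.

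Along the epithelial minus mesenchymal score, a mean of epithelial genes minus a mean of mesenchymal genes in log2 CPM, members moved little. HuH28 had the lowest value, −11.89, and SNU-245 the highest, 5.09. In a limma fit of 11948 genes, 0 of 81 members passed an adjusted p of 0.05, while 6.4% of all genes did. An unadjusted p under 0.05 was reached by 9 members, 11.1%, against 20.8% of all genes. The median slope was 0.019 log2 units per unit of score, against 0.0 over all genes, with 57 members positive and 24 negative. Positive slopes made up 70.4% of the members, against 49.9% of all genes. All 12 tested complex IV members had positive slopes. The median slope was 0.032 with the repository as a covariate. Without HuH28 it was 0.003, with 43 positive and 38 negative, and 3 members had an unadjusted p under 0.05.

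COX5B, a subunit of complex IV, had the smallest p along the score. It ran from 41.1 CPM in G415 through a median of 97.2 to 239 in SNU-245, the line with the highest score. Its slope was 0.09 with a standard error of 0.03 (adjusted p = 0.0598), and it was called with the repository as a covariate (0.0387) and without EGI-1 or NOZ (0.0371 and 0.0377). Without HuH28, the line with the lowest score, the adjusted p of COX5B was 0.197, and over all alternatives it ran from 0.0371 to 0.197. COX6A1 had 27.7 CPM in HuH28, a median of 93.2 and 164 in SNU-478 (slope 0.08, standard error 0.03, adjusted p = 0.0663). Without HuH28 the COX6A1 slope was 0.047, with an adjusted p of 0.474. ATP5MJ (0.08, adjusted p = 0.136) and COX5A (0.07, 0.156) were next, and ATP5F1A, the catalytic core's alpha subunit, had the smallest p of the negative slopes (−0.06, 0.164). Of the regulator list 1 of 12 tested genes was called, against 6.4% of all genes. It was ESRRA, an oestrogen related receptor, with a slope of 0.15 (adjusted p = 0.00159). ESRRA was lowest in HuH28, at 13.2 CPM against a median of 69.1, and its slope without HuH28 is not given here.

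Genes that act beside the subunits were followed in the same fits. Of 14 complex I and 21 complex IV assembly factors, 12 tricarboxylic acid cycle genes and 77 mitochondrial ribosomal protein genes, 0 passed an adjusted p of 0.05 in intrahepatic lines, in metastatic lines or along the score. In intrahepatic lines the unadjusted p in edgeR was under 0.05 for 1 complex I assembly factor, 0 complex IV assembly factors, 0 tricarboxylic acid cycle genes and 6 mitochondrial ribosomal protein genes. The last of these is 7.79% of those tested, against 9.47% of all genes. In metastatic lines the counts were 0, 0, 1 and 3, the last being 3.9%, against 7.73% of all genes. Along the score in limma they were 0, 5, 0 and 10, against 20.8% of all genes. The 5 complex IV assembly factors are 23.8% of those tested, and the 10 of 77 mitochondrial ribosomal protein genes are a lower share than that of all genes. The complex I assembly factor was NUBPL (−0.96, adjusted p = 0.394). SURF1, a complex IV assembly factor, had a slope of 0.09 along the score (adjusted p = 0.054) and COX19 0.10 (0.0675). CYC1, the cytochrome c1 subunit of complex III, whose symbol lies outside the chosen pattern, ran from 47.6 CPM in Mz-ChA-2 through 139 to 615 in NOZ. CYCS, cytochrome c itself, ran from 35.9 in EGI-1 through 213 to 315 in SNU-478.

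Levels far from a member's median were rare among the 80 members with a median of at least 5 CPM. Of their 1600 pairs of a member and a line, 2 lay at least 2 log2 units away, or 0.125%, against 6.81% for all genes. At least 1.5 units away lay 16 pairs, 1.0% against 11.2%. COX6B2 and COX7B2, with lower medians and the levels described above, are not among these pairs. The genes behind these shares were not matched to the members for level. Both pairs at least 2 units away were in Mz-ChA-2. ATP5MJ, a small subunit of the ATP synthase membrane part on chromosome 14, had 16.2 CPM there against a median of 73.3 (−2.17). The 10 detected genes nearest to it in gene order, among them AKT1 (−1.87) and INF2 (−3.25), were all lower in that line, with a median of −2.35. NDUFA3, on chromosome 19, had 91.7 CPM against a median of 22.3 (2.03), and 8 of its 10 neighbours were higher, with a median of 1.35. NDUFA3 overlaps TFPT, and whether reads of TFPT entered its counts was not tested.

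Other members departed in the direction of most of their neighbours, to differing degrees. NDUFC2, on chromosome 11, had 29.4 CPM in SNU-1196 against a median of 84.8 (−1.52), and all 10 neighbours were lower, with a median of −1.43. NDUFB9, on chromosome 8, had 446 CPM in NOZ against 126 (1.83), and 9 of 10 neighbours were higher, with a median of 1.23. NDUFV2, on chromosome 18, had 12.3 CPM in TGBC18TKB against 43.2 (−1.80), and all 10 neighbours were lower, with a median of −0.96. COX6A1 had −1.74 in HuH28, and all 10 neighbours were lower there too, though by less, between −1.05 and −0.02 with a median of −0.40. ATP5F1B (1.52), NDUFB6 (1.56) and UQCRQ (1.63) in NOZ and ATP5MJ (−1.57) in HuH28 had 7 of 10 neighbours on the same side. No such counts are given here for all genes. Over the 20 lines a member's level followed the median of its 10 neighbours with a median r of 0.58, against 0.45 over 11221 genes. ATP5MJ (0.86), COX8A (0.82) and ATP5MF (0.81) had the highest r, and NDUFS1 (−0.19) the lowest.

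**Figure D5:**
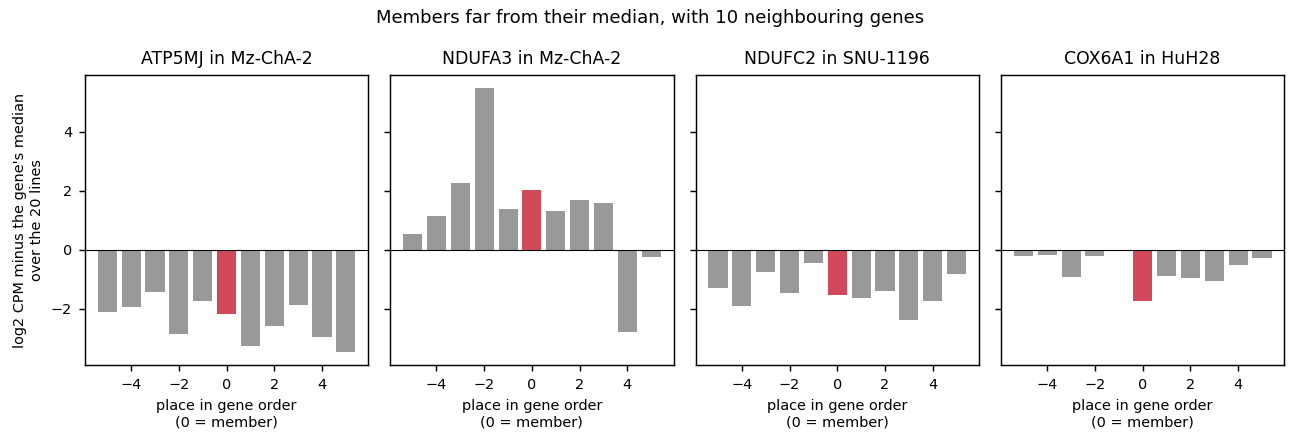
Log2 CPM in 1 line minus the gene's median over the 20 lines, for 4 members (red) and the 5 detected genes on each side in gene order (grey). ATP5MJ in Mz-ChA-2 (−2.17) and NDUFC2 in SNU-1196 (−1.52) lie among neighbours that are all lower, with medians of −2.35 and −1.43, and the 10 neighbours of COX6A1 in HuH28 (−1.74) are also all lower, with a median of −0.40.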

How the data were processed

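RNA was measured in 20 biliary tract cancer cell lines with 1 library each. The deposited values are raw counts of reads per gene, whole numbers, not normalized by the authors. Per the submitters' processing notes, reads passed through Trimmomatic, TopHat2 2.0.8, Picard 1.69 and featureCounts on hg19 (GRCh37). Per the labels' protocols the kit was a stranded poly(A) mRNA kit. How featureCounts treated strand, and its annotation release, is not stated there. A RefSeq gene table named 23508 of 24222 identifiers and GENCODE metadata 359; the other 355 held 0.484% of the counts. Totals of 10.47 M to 15.41 M counts set the precision.

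Levels are CPM after TMM scaling, and log2 CPM uses a prior count of 2. Site and origin were tested with edgeR 4.0.16 quasi-likelihood fits after filterByExpr, and the epithelial minus mesenchymal score with limma 3.58.1 (trend, robust), with Benjamini-Hochberg adjustment over all genes fitted. Lines are the replicates, and p-values set a difference or slope against the spread between them. The planned design kept NDUFA4 and NDUFA4L2 in complex I by their prefix; they were moved to complex IV after the files were seen. Alternatives were DESeq2 1.42.0, limma-voom, other scalings, filters and covariates, and leaving out each line. Wherever the repository was a covariate, the DSMZ and Zurich lines were pooled as 1 level. The fits were run on simulated data with less spread between lines and larger differences than the members' median differences here. That run does not tell how well small differences would be found. The members and lists were chosen with earlier results of these data known. Named genes were all SDH genes, restricted forms with their partners, subunit c genes, ATP5IF1, COX7A2L, members of smallest p in each comparison, those of highest and lowest SD, those far from their median, and the 5 genes most like the member score. The other members described by complex were chosen after their values were seen. Values of 1 member are not reported here.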

Additional observations from a re-analysis of the deposited data

Results flagged for a closer look

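Within groups of 4 to 10 lines, the highest or lowest line was set against the gap that Dixon's 95% critical value allows, for the member scores and the named members. Of 204 such groups 33 had a line standing apart, with levels compared on the linear scale. The nominal rate of about 1 in 20 is no yardstick for this count. Many of the named members were picked in these data for a small p, a high SD or a level far from their median. The gallbladder and metastatic groups also share lines.

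EGI-1 stood below the other extrahepatic lines in the member score (−0.57, against 0.02 to 0.26) and the complex I score (−0.55). The gap took 0.711 of the range for the member score, only just past the critical value, and 0.809 for the complex I score. Scores were rounded before this check. Among the extrahepatic lines Sk-ChA-1 was high in NDUFA13 (116 CPM, against 66.9 to 69.5) and NDUFB6 (51.0), and SNU-245 in NDUFA3 (66.3).

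NOZ stood above the other gallbladder lines in NDUFB8 (172 CPM), NDUFS4 (93.6) and NDUFB7 (123). It also stood above the other metastatic lines in these 3 genes, in NDUFA12 (96.9), in UQCRFS1 (144) and in the complex II score (0.50, against −0.09 to 0.10). Mz-ChA-2 stood apart among both gallbladder and metastatic lines, with COX6B2 at 94.4 CPM, NDUFC2 at 179 and NDUFA3 at 91.7, and among metastatic lines with ATP5MJ at 16.2 CPM, against 64.3 to 89.5. Its COX7B2 level of 0.0778 CPM, also set apart among metastatic lines, is 1 read. OCUG-1 was high in NDUFB2 (162 CPM) in both groups and, among metastatic lines, in NDUFA4L2 (2.80). SNU-308 was high in NDUFV2 (118) and TGBC2TKB in COX7B2 (14.5) among gallbladder lines.

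Among the 4 intrahepatic lines HuCCT1 stood above the others in the complex II score (−0.04, against −0.33 to −0.29) and in COX6B2 (4.10 CPM), TKKK in COX7A2L (143, against 52.4 to 62.0) and HuH28 in COX7B2 (13.4). HuH28 stood below them in COX6A1 (27.7 CPM, against 82.9 to 93.3) and SNU-1079 in NDUFA6 (26.3).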

How the results depend on the processing

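The count of members called stayed at 0 in every alternative for ampullary, extrahepatic and gallbladder lines, for intrahepatic against extrahepatic lines and for metastatic lines. It was 1 with DESeq2 in intrahepatic lines and in the joint test (COX7A2 in both). Along the epithelial minus mesenchymal score it was 1 without a filter on low counts (COX7B2) and 1 with the repository as a covariate (COX5B), and 0 to 1 when a line was left out: COX5B without EGI-1 or NOZ, COX6A1 without Mz-ChA-2 and SDHD without SNU-1196. The cause was not tested. Each named member kept its direction in its comparison under all alternatives run. The members' median, 0.02 in ampullary and in extrahepatic lines, changed sign in some alternatives: when a line was left out it ran from −0.13 to 0.19 in ampullary lines and from −0.05 to 0.13 in extrahepatic lines. DESeq2 called 133 to 382 genes in the site comparisons, where edgeR called 0 or 1, and limma-voom 0 to 8. The members' median difference in intrahepatic lines ran from −0.46 to −0.26 when a line was left out and was −0.16 with OZ taken as intrahepatic. Among the 80 members with a median of at least 5 CPM, the pairs at least 2 log2 units from the median were 2. They were 0 to 2 when a line was left out (0 without Mz-ChA-2), and 16 at 1.5 units. The member score spanned 1.01 to 1.34 log2 units, with NOZ highest unless left out. EGI-1 was lowest except with unscaled totals or with EGI-1 left out, where HuH28 was. With NDUFA4 counted in complex I, an alternative chosen after seeing the data, the spans of the complex I and IV scores were within 1.5 times. Each site has 3 to 7 lines. No paired analysis was possible, because each line has 1 library and the labels used here pair no lines.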

Other observations

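NDUFA3 (91.7 CPM) and COX6B2 (94.4 CPM), both on chromosome 19, had their highest levels in Mz-ChA-2. In the same line ZNF331, the second detected gene before NDUFA3, was 5.50 log2 units above its median, and TMC4, on the other side, was at −2.80 log2 units. COX6B1, also on chromosome 19, had no line 1.5 log2 units or more from its median.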
